A study of Mus musculus with 27 samples.

Results

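The RIN family and the Rab5 endocytosis genes were followed through the maturation of mouse calvarial cells. They are a list of 10 genes chosen by name (Rin1, Rin2, Rin3, Rab5a, Rab5b, Rab5c, Rab31, Rabgef1, Eea1 and Bin1). All 10 were matched by symbol among the 37991 genes of the deposited tables, and all 10 passed the filter on low counts. The cells came from the skull vault of neonatal C57BL/6J-Col3.6 CFP mice, aged 5 to 9 days, in which a fragment of the type I collagen promoter drives a cyan fluorescent protein. Fluorescent cells were collected by sorting after 4 days of growth and were then kept in ascorbic acid, β-glycerol phosphate and 10% serum. RNA was taken on days 2, 4, 6, 8, 10, 12, 14, 16 and 18, in a single strain with no untreated or unsorted group, and each day had 3 profiles. The titles number these profiles as replicates and the study describes them as triplicates. The deposited files, however, give the 3 profiles of a day 1 barcode and 1 library number on different sequencing lanes, and over 90 chi-square tests of the 10 genes between the lanes of a day 5 gave p under 0.05. They were therefore added up and counted as 1 library a day, and whether separate cultures lie behind them is not known. All values with n = 9 rest on this reading. The promoter fragment is active in collagen-producing cells in general, so the sort does not select osteoblasts alone.

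Rab5 is a small GTPase that marks early endosomes, the compartments that receive membrane and receptors taken up from the cell surface. It is switched on by exchange factors, among them the RIN proteins and Rabex-5 (the product of Rabgef1), and its active form recruits tethers such as EEA1, which bring endosomes together for fusion. RIN1 and RIN3 also bind other signalling and membrane-shaping proteins, RIN3 acts on Rab31 as well as on Rab5, and BIN1 is a membrane-bending protein that binds RIN3. Loss of RIN2 in people causes a disorder of connective tissue, and variants in RIN3 have been associated with bone density and with Paget's disease of bone.

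The sequences just upstream of the RIN gene starts are shown because the counts of these 3 relatives followed different courses. Each is the 250 bases before a RefSeq start, on the plus strand of GRCm38.p6, written 5′ to 3′ with every CpG dinucleotide in capitals. The Rin1 window is chr19:5050565-5050814, the Rin2 window is chr2:145785866-145786115 and the Rin3 window, at the first of the 2 starts listed for that gene, is chr12:102282824-102283073.
Rin1: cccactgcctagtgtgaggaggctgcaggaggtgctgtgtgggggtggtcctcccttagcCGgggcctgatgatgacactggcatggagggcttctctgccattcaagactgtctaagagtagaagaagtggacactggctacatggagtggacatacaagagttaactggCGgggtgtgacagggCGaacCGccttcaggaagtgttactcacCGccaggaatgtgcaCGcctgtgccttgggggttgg
Rin2: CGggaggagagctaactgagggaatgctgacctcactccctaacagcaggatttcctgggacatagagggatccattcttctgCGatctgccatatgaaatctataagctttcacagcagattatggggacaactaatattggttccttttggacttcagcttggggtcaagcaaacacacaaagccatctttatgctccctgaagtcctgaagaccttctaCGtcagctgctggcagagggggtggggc
Rin3: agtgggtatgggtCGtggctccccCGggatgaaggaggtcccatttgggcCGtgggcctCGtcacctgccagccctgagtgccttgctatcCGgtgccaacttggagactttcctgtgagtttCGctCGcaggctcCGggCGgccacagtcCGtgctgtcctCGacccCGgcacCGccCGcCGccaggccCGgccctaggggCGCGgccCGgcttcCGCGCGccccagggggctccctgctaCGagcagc
The Rin3 window held 23 CpG dinucleotides, more than 86.7% of 32851 upstream windows of that length, whose median was 6. The Rin1 window held 6 and the Rin2 window held 3, above 49.6% and 29.0% of windows. The second Rin3 start had 12. Of 6 motifs searched on both strands, the GC box (GGGCGG) occurred 2 times in the Rin3 window shown and 1 time at its second start, and 32.7% of all windows held it. CCAAT occurred 1 time in the Rin2 window, and 33.8% of all windows held it. The other motifs had no match in any of the 4 windows. Among all windows, the TATA box (TATAAA) was held by 12.4% and the core of the Runx motif (TGTGGT) by 14.0%. The AP-1 motif (TGANTCA) was held by 6.75% and the E-box (CACGTG) by 6.02%. Each window was found once in NCBIM37, the build of the count data. There the Rin1 start lay 7 bases inside the annotated gene, the Rin2 start 1382 bases inside it, and the Rin3 starts 26 and 593 bases inside it.

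The libraries ranged from 22470147 estimated counts on day 10 to 62009115 on day 12. Over all genes tested, 28.3% rose and 26.1% fell past the threshold of the line in day described below. Of 9 osteoblast markers, 6 rose past the threshold of the line (Col1a1, Col1a2, Runx2, Ibsp, Bglap and Dmp1) and none fell past it. Their summed level, most of it from the collagen genes Col1a1 and Col1a2, went from 8443 to 13089 CPM (counts scaled to a common library size) on days 2 to 6 to 21542 to 25749 CPM on days 14 to 18, and Bglap, the osteocalcin gene, had 1 to 5 counts on each of days 2 to 10 and 17.8 CPM on day 18. Sp7, which encodes osterix, was not past the line but was past the spline (adjusted p = 1.16e-05 from edgeR), with 49.8 CPM on day 2, 3.70 on day 8 and 14.2 on day 18. Alpl, the alkaline phosphatase gene, had 13.8 CPM on day 2, 0.676 on day 6 and 24.7 on day 18 (spline adjusted p = 0.00742 from edgeR). The late markers Bglap, Ibsp and Dmp1 were all under 1 CPM on days 2 to 6, while the labels call the cells osteoblasts on all days. Monocyte and macrophage markers rose in 6 of 7 genes, from 19.1 to 42.1 CPM summed on days 2 to 6, through 48.3 to 293 CPM on days 8 to 12, to 351 to 1363 CPM on days 14 to 18. Most of these sums was Lyz2, with 14.0 CPM on day 2 and 1217 CPM on day 18, while Cd14 did not pass. Adipocyte markers rose in 5 of 5 genes, from 2.20 to 6.17 CPM on days 2 to 6 to 98.0 to 201 CPM on days 14 to 18. Osteoclast markers rose in 3 of 7, of which 5 were tested (30.5 to 66.2 CPM early and 157 to 165 CPM late, with Dcstamp and Calcr at 0). Most of that sum was Ctsk, with 29.9 CPM on day 2 and 148 CPM on day 18. Between those days Acp5 went from 0.444 to 11.9 CPM and Atp6v0d2 from 0.0234 to 4.90 CPM, while Ocstamp and Oscar did not pass. Mast cell markers rose in 2 of 6, of which 2 were tested (0 to 0.0701 CPM early and 1.44 to 4.17 CPM late, with Mcpt4, Fcer1a and Tpsb2 at 0). Of 4 endothelial markers, 3 were tested, and 2 rose and 1 fell (5.28 to 10.2 CPM early and 19.3 to 26.6 CPM late). Of 6 skeletal muscle markers, 2 were tested and 1 fell (4.51 to 10.7 CPM early and 0.283 to 0.496 CPM late, with Ckm at 0). These lists move with day, as do the changes in the 10 genes, and their part in those changes was not tested. In RNA from a whole culture, fewer cells of a type and less RNA per cell cannot be told apart.

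Change within a gene was described in CPM after upper-quartile scaling and tested with a straight line in day over the 9 libraries (edgeR quasi-likelihood, adjusted over all genes). The fitted change is given on the log2 scale from day 2 to day 18. Rin2, Rab5b and Rab31 rose, and Rin1, Rabgef1, Eea1 and Bin1 fell, so that 7 of the 10 passed an adjusted p of 0.05. Slopes were common in these cultures: 54.3% of 15659 genes passed the same threshold, 28.3% upward and 26.1% downward. A natural spline in day, which also sees a gene that dips and recovers, was past the threshold in 6 of the 10, against 57.5% of 16256 genes. Days 2 to 6 and days 14 to 18 did not overlap in CPM for 7 of the 10 genes, against 62.2% of all genes tested. The median fitted change was -0.10 over the 10 genes and 0.05 over all genes tested. What follows concerns the single genes.

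**Figure D1:**
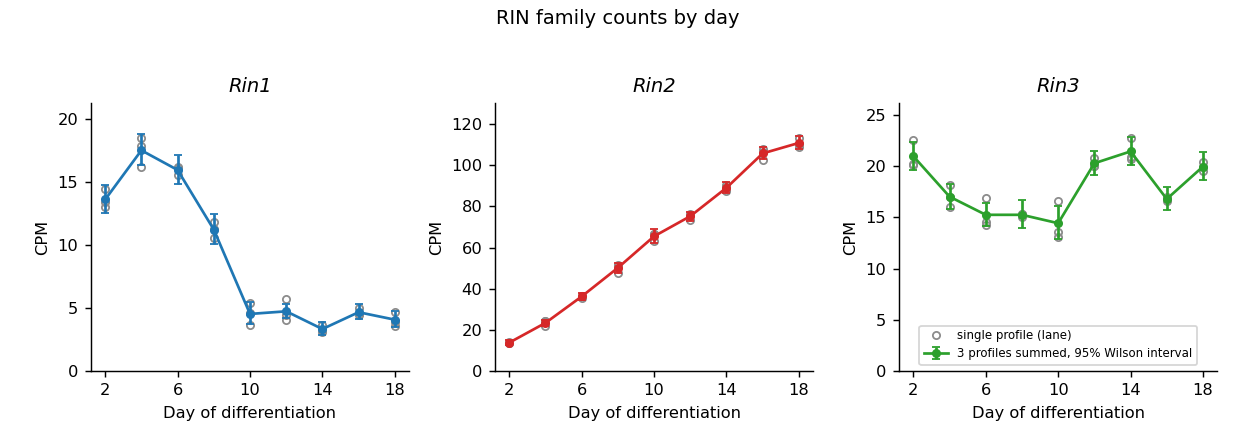
CPM of Rin1, Rin2 and Rin3 (vertical axes, each from 0) against day of differentiation; filled points are the 3 profiles of a day summed, with 95% Wilson intervals for counting error, and open points are the single profiles. Rin1 goes from 13.6 to 4.05 CPM and Rin2 from 13.7 to 110.9 CPM between day 2 and day 18, while Rin3 stays between 14.4 and 21.4 CPM.

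Rin2 (ENSMUSG00000001768), an exchange factor for Rab5 that lies at chr2:145610470-145713352 (NCBIM37, plus strand), showed the largest rise among the 10 genes. On days 2 to 18, every other day, its levels were 13.7, 23.3, 36.2, 50.1, 65.5, 75.2, 89.1, 105.8 and 110.9 CPM. It was higher at each of the 8 steps between sampled days, and the days at either end did not overlap. The level on day 18 was 8.09 times that on day 2, with Wilson intervals of 108 to 114 CPM and 12.6 to 14.9 CPM. The fitted log2 change was 2.87 (SE 0.29, adjusted p = 5.02e-05 from edgeR, n = 9 libraries). The step from day 2 to day 4 was the largest in ratio, at 1.70. All 27 counts of Rin2 were whole numbers, and its transcripts shared no stretch of 50 bases with another annotated gene.

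Rin1 (ENSMUSG00000024883), which joins Ras signalling to Rab5 activation, lies at chr19:5050808-5057071 (NCBIM37, plus strand). Day by day in the same order, it had 13.6, 17.5, 15.9, 11.2, 4.51, 4.72, 3.31, 4.64 and 4.05 CPM. The first 4 days were all above the last 5, and the fall was concentrated in 1 step, from day 8 to day 10, where the level dropped by a factor of 2.48. The day 10 library was the smallest, yet its 100 counts of Rin1 gave a Wilson interval of 3.71 to 5.48 CPM, below the interval of 10.1 to 12.4 CPM from 351 counts on day 8. The line gave a log2 change of -2.48 (SE 0.42, adjusted p = 7.02e-04 from edgeR). Rin1 had whole-number counts in 21 of 27 profiles, and 36 of its stretches of 50 bases (0.872%) also occurred in transcripts of 28 other genes, so a small part of its reads could have been divided.

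Rin3 (ENSMUSG00000044456), at chr12:103521258-103629065 (NCBIM37, plus strand), did not pass the test for a slope. The 9 levels in day order were 21.0, 17.0, 15.2, 15.2, 14.4, 20.3, 21.4, 16.8 and 20.0 CPM. The days at either end overlapped, and the 3 lowest values were those of days 6, 8 and 10. Along the line, its log2 change came to 0.13 (SE 0.21, adjusted p = 0.639 from edgeR), and the spline, whose fitted curve was lowest on day 8 and spanned a log2 range of 0.51, had an adjusted p of 0.0541 from edgeR. The spline for Rin3 passed 0.05 with DESeq2 (adjusted p = 0.033) and without day 16 (adjusted p = 0.0172) or day 18 (adjusted p = 0.0372). It also passed with limma on TPM (adjusted p = 0.0277) and with edgeR without replicate 3 (adjusted p = 0.0486). The TPM of Rin3 depends on a length that moved, as described below. In edgeR the spline did not pass with TMM factors (adjusted p = 0.0511) or with no filter (adjusted p = 0.0566). Nor did it without replicate 1 (adjusted p = 0.0807) or replicate 2 (adjusted p = 0.0625). Of the days left out in turn, only 16 and 18 gave a pass, and without day 2 the adjusted p was 0.123.

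Within a library, the ratio of Rin2 to Rin1 counts needs no scaling between libraries. It was 1.01, 1.33, 2.27, 4.48, 14.5, 16.0, 26.9, 22.8 and 27.4 in day order. The ratio of Rin2 to Rin3 counts went from 0.653 on day 2 to 5.55 on day 18, with its highest value of 6.30 on day 16. These ratios describe change over the days and not relative abundance, since the transcripts differ in length. Per length, in TPM (transcript abundance corrected for length) after upper-quartile scaling, Rin3 made up 63.2% of the RIN transcripts on day 2, Rin2 19.2% and Rin1 17.5%. On day 18 Rin2 made up 68.1%, Rin3 29.9% and Rin1 2.03%. These shares rest on means of lanes that differed. Rin3 ran from 13.3 to 22.9 TPM between the lanes of day 2, and Rin2 from 46.2 to 64.3 TPM between those of day 18. Together the 3 genes summed to 29.2 TPM at the start and 80.8 TPM on the last day.

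**Figure D2:**
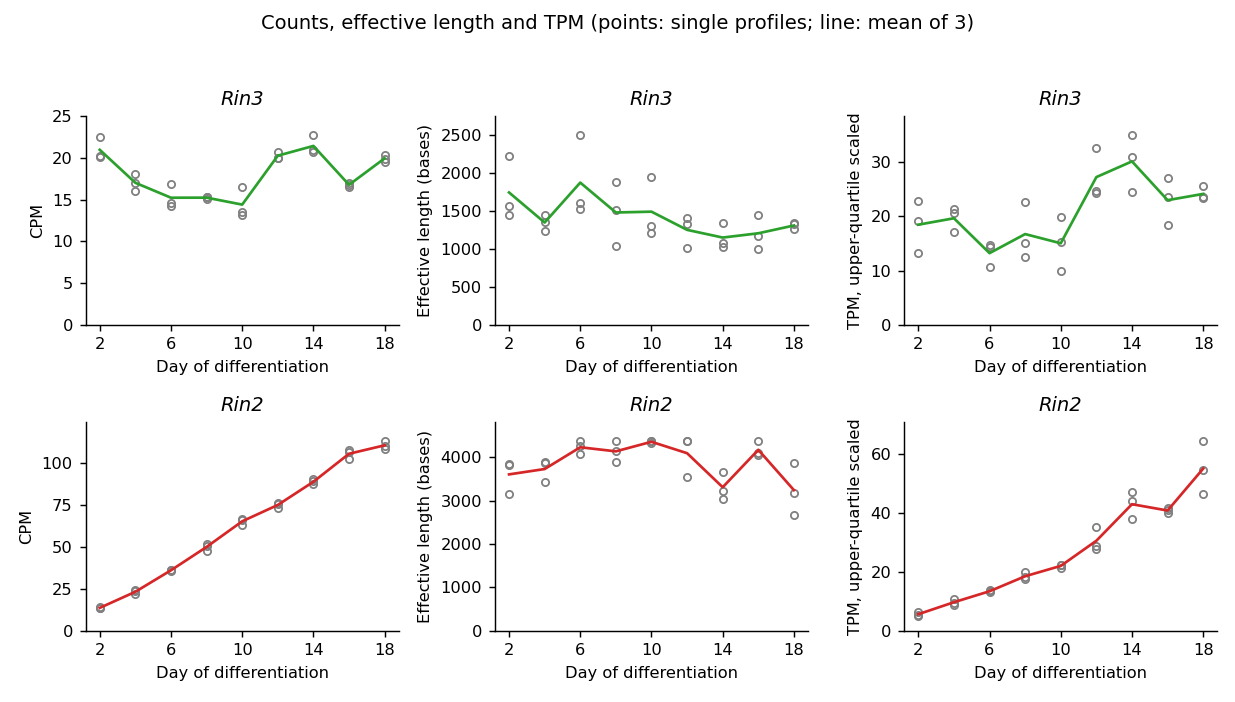
CPM, RSEM's effective length in bases and upper-quartile scaled TPM (vertical axes, each from 0) of Rin3 and Rin2 against day; open points are single profiles and lines are means of the 3 profiles of a day. For Rin3 the effective length is lowest on day 14 at 1145 bases, the day of its highest TPM of 30.2.

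The TPM of Rin3 and of Rin2 depend on lengths that moved. RSEM divides a count by an effective length that is averaged over the transcripts of a gene in proportion to their estimated use, and Rin3 has 7 annotated transcripts, of 444 to 3892 bases. The effective length of Rin3 was 1868 bases on day 6 and 1145 bases on day 14, a ratio of 1.63, and it differed by up to 1.81 times between the lanes of a day. Rin3 reached 30.2 TPM on day 14 against 13.2 TPM on day 6, a wider gap than its 21.4 against 15.2 CPM. With limma on log2(TPM + 0.5), the fitted change of Rin3 was 0.69 (adjusted p = 0.0806) against 0.13 from counts. For Rin2, with 8 transcripts, the length ranged from 3243 to 4358 bases by day, a ratio of 1.34, and the fitted change from TPM was 3.04 (adjusted p = 1.97e-05 from limma). Rabgef1, with 8 transcripts, had a ratio of 1.29 by day and of up to 2.05 between lanes. The ratio was 1.05 for Rab5c and smaller for Rab31, Eea1 and Bin1, while Rin1, Rab5a and Rab5b have 1 annotated transcript each and a fixed length.

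**Figure D3:**
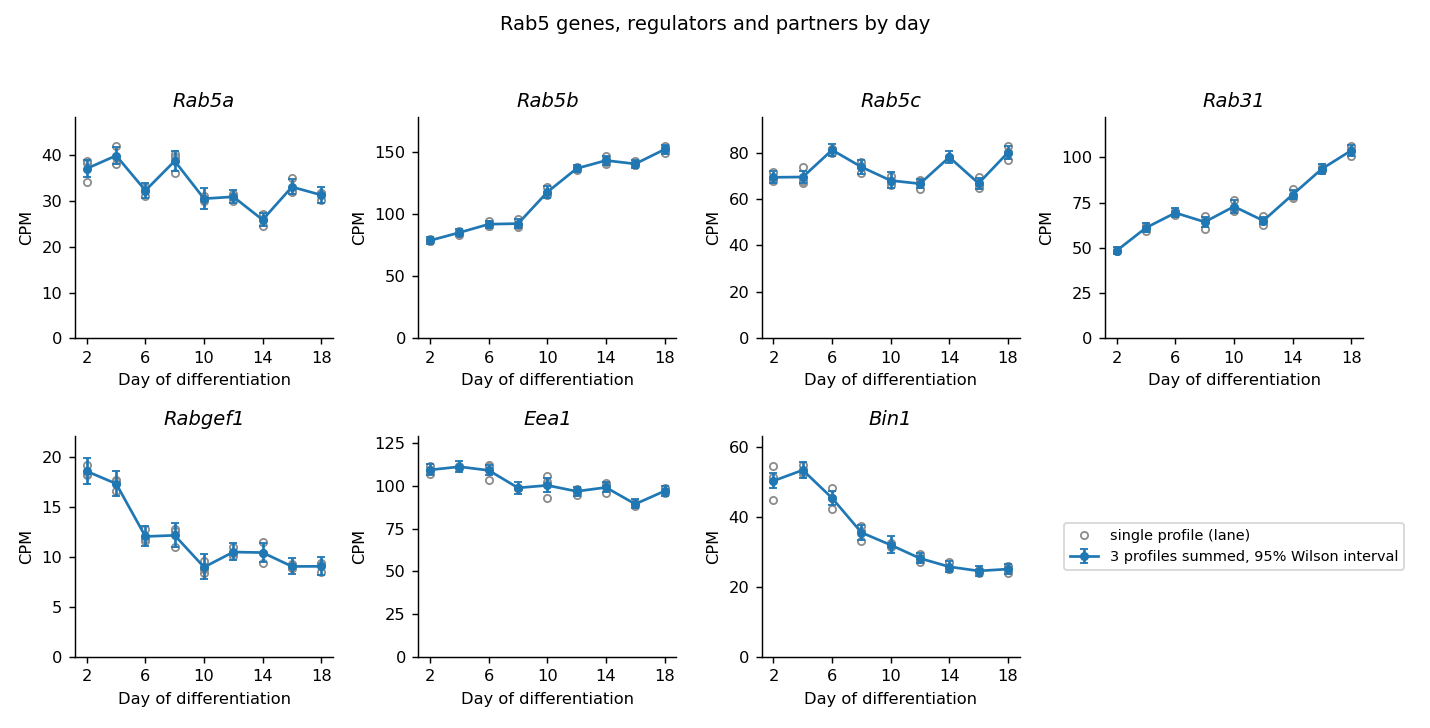
CPM of Rab5a, Rab5b, Rab5c, Rab31, Rabgef1, Eea1 and Bin1 (vertical axes, each from 0) against day; filled points are the 3 profiles of a day summed, with 95% Wilson intervals for counting error, and open points are single profiles. Rab5b and Rab31 end at 152 and 104 CPM, the highest of their 9 days, and Bin1 ends at 25.0 CPM after 53.3 CPM on day 4.

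The 3 Rab5 genes encode closely related GTPases, and only Rab5b passed the test for a slope. Rab5b (ENSMUSG00000000711, chromosome 10, 128114249 to 128133324 in NCBIM37 as for all genes here, minus strand) had 78.6, 84.9, 91.7, 92.1, 117, 136, 143, 140 and 152 CPM in day order. All days from day 10 on were above all earlier ones. On the log2 scale the fitted change was 1.04 (SE 0.12, adjusted p = 9.11e-05 from edgeR). Of its stretches of 50 bases, 13.1% also occurred in the pseudogene Gm13991, which was given 7.52 counts over all profiles against 44470 for Rab5b.

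Rab5c (ENSMUSG00000019173, chromosome 11, 100576323 to 100599529, minus strand) stayed between 66.6 CPM on day 12 and 81.2 CPM on day 6 with a median of 69.5, and early and late days overlapped. Its fitted log2 change was 0.06 (SE 0.13, adjusted p = 0.744 from edgeR), with a negative sign, -0.051, when day 18 was left out. Rab5a (ENSMUSG00000017831, chromosome 17, 53618559 to 53646996, plus strand) ranged from 39.9 CPM on day 4 to 25.9 CPM on day 14 with a median of 32.3, and its early and late days overlapped as well. The fitted log2 change of Rab5a was -0.36 (SE 0.16, adjusted p = 0.0785 from edgeR), and with the 27 profiles as separate samples it was -0.37 and passed (adjusted p = 7.37e-04). The counts of Rab5a were whole in 2 of 27 profiles only. Of its stretches of 50 bases, 29 (1.26%) also occurred in Gm12045, which had 0 counts over all profiles. The span of Rab5a overlaps that of the opposite-strand gene 4921523A10Rik (816 counts over all profiles) by 212 bp. Whether exons overlap there was not checked. Since no source used here gives the strand of the libraries, reads there cannot be assigned to either gene.

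Per length, Rab5c was the most abundant of the 3 on day 2, at 48.4% of their summed TPM, with Rab5b at 31.1% and Rab5a at 20.4%. On day 18 Rab5b had 45.1%, Rab5c 42.0% and Rab5a 12.9%. The TPM ratio of Rab5b to Rab5c was 0.642, 0.689, 0.626, 0.702, 0.971, 1.12, 1.00, 1.13 and 1.07 in day order. All of the first 4 days were below all of the last 5. The summed TPM of the 3 genes was 129 on day 2 and 184 on day 18.

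Rab31 (ENSMUSG00000056515, chromosome 17, 66001066 to 66122092, minus strand), a Rab5 relative that works between the trans-Golgi network and endosomes and is a substrate of RIN3, also rose. Its 9 levels in day order were 48.5, 61.2, 69.4, 64.3, 72.9, 65.0, 79.4, 93.7 and 103.8 CPM. The last 3 days were above all others, after a stretch from day 6 to day 12 without a steady direction. The line gave a log2 change of 0.88 (SE 0.14, adjusted p = 5.28e-04 from edgeR). The summed markers of monocytes and macrophages, adipocytes, osteoclasts and mast cells were also highest on the last 3 days. So were the osteoblast markers Ibsp, Bglap and Dmp1, with 88.9, 17.8 and 10.3 CPM on day 18. The part of any of these markers in the rise of Rab31 was not tested.

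Rabgef1 and Eea1 act directly on either side of Rab5. Rabgef1 (ENSMUSG00000025340, chromosome 5, 130647668 to 130690212, plus strand), which encodes the exchange factor Rabex-5, had 18.6, 17.3, 12.0, 12.2, 8.97, 10.5, 10.4, 9.05 and 9.05 CPM in day order. Only the first pair of days was above 12.2 CPM, and the step from day 4 to day 6 was the largest, a factor of 1.44. The fitted log2 change of Rabgef1 was -1.02 (SE 0.19, adjusted p = 0.0014 from edgeR). Gm15920, on the same strand, overlaps Rabgef1 by 402 bp and had 259 counts against 4589 for Rabgef1. The counts of Rabgef1 were whole in all 27 profiles, and its transcripts shared no stretch of 50 bases with another annotated gene. Eea1 (ENSMUSG00000036499, chromosome 10, 95403297 to 95508152, plus strand), the early endosome tether, varied little, from 111 CPM on day 4 to 89.4 CPM on day 16, with a median of 99.1. Its fitted log2 change of -0.26 (SE 0.09, adjusted p = 0.0353 from edgeR) was the smallest that passed the test. It no longer passed without day 2, 4, 6, 12 or 16, each left out in turn (adjusted p from 0.0511 to 0.11), nor in the spline (adjusted p = 0.132 from edgeR).

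Bin1 (ENSMUSG00000024381, on chromosome 18) had 50.2, 53.3, 45.3, 35.5, 31.9, 28.1, 25.7, 24.5 and 25.0 CPM in day order. The fall ran from day 4 to day 14 and the last 3 days lay between 24.5 and 25.7 CPM. The slope came to a log2 change of -1.25 (SE 0.14, adjusted p = 8.76e-05 from edgeR). Counts of Bin1 were whole in all 27 profiles, and its effective length, over 3 annotated transcripts, varied by a ratio of 1.01 between days. An opposite-strand gene, A830052D11Rik, overlaps it by 1068 bp and had 58 counts over all profiles. A muscle form of BIN1 shapes the inner membrane system of skeletal muscle. Of the 6 muscle markers, Acta1 (1111 counts over all libraries) also peaked on day 4, at 10.4 CPM, and fell to 0.283 CPM on day 18 (log2 change -5.91, adjusted p = 1.57e-04 from edgeR). Myh3 had 39 counts, Actn2 7, Myod1 5, Myog 1 and Ckm 0. Their part in the fall of Bin1 was not tested.

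Levels between genes were compared per length, as the mean over the 9 days of upper-quartile scaled TPM with the SD over days. Rab5c (70.3 ± 6.73 TPM) and Rab5b (62.3 ± 17.0) came first, then Rab31 (35.8 ± 8.95), Bin1 (31.9 ± 9.62), Rin2 (26.5 ± 16.9), Rab5a (24.9 ± 3.10), Eea1 (20.9 ± 1.30), Rin3 (20.9 ± 5.70), Rabgef1 (12.5 ± 4.09) and Rin1 (3.49 ± 2.23), with n = 9 days for each. Neighbours differed by more than the larger of their SDs at Rab5b and Rab31, at Rab5a and Eea1, at Rin3 and Rabgef1, and at Rabgef1 and Rin1. The other neighbours in this order did not differ beyond that spread. The spread includes each gene's own change over the days, and genes were not compared day by day. The order was not fixed in time, since Rin2 was the next to lowest of the 10 genes on day 2, at 5.62 TPM, and the third highest on day 18, at 55.0 TPM.

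**Figure D4:**
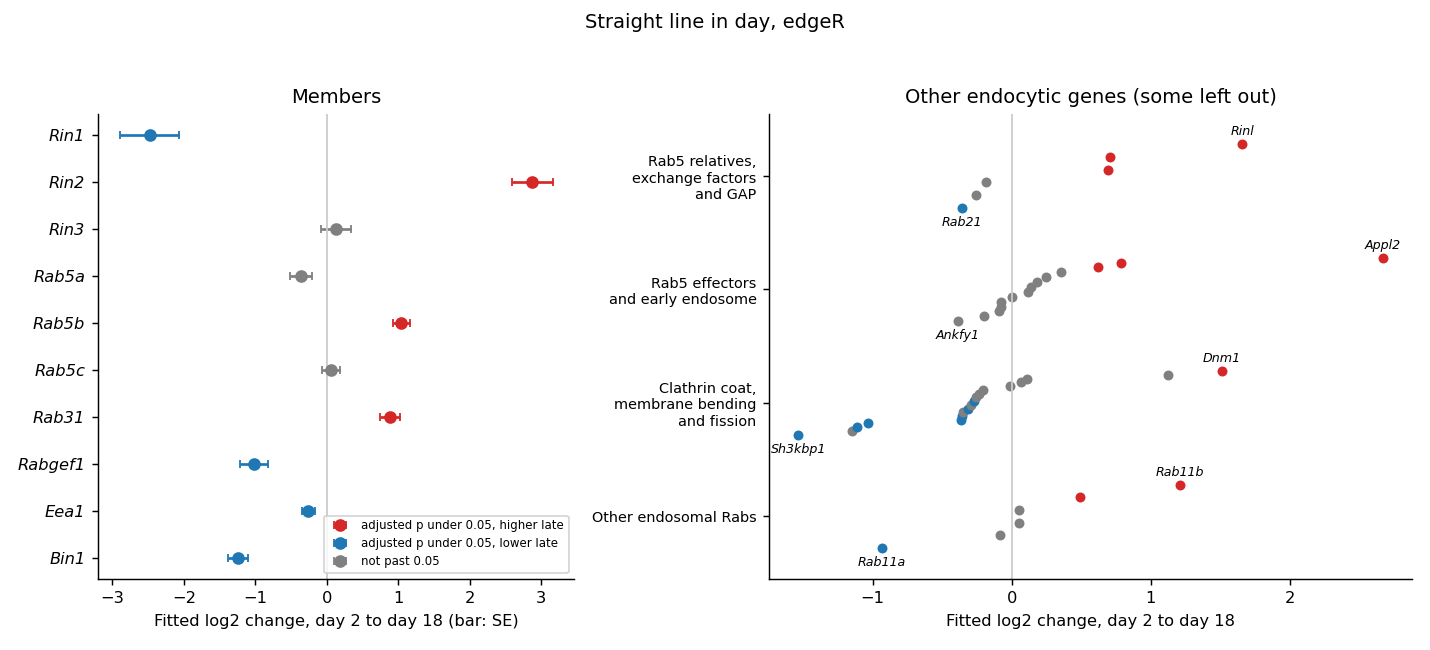
Fitted log2 change from day 2 to day 18 (horizontal axes) in the straight line in day, for the 10 genes with SE bars (left) and for genes of 4 other endocytic lists that are reported here (right); red and blue mark genes past an adjusted p of 0.05, higher and lower late, and grey those not past it. Rin1 at -2.48 and Rin2 at 2.87 lie farthest apart among the 10, and Appl2 at 2.67 is the highest on the right, where Bin2 is left out because it had no counts on 4 days.

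The wider endocytic machinery was counted in 4 lists. Over all genes tested, 28.3% rose and 26.1% fell past the same threshold of the line. Among 9 relatives, exchange factors and a GTPase-activating protein of Rab5, 8 were tested, 3 rose, 3 fell and 2 did not pass, with a median fitted log2 change of -0.22 against 0.05 over all genes tested. Rinl, a relative of the RIN genes, rose by 1.66 (SE 0.50, adjusted p = 0.0167 from edgeR) at a low level, from 0.561 CPM on day 2 to 1.37 CPM on day 18. Rab22a, the closest relative of Rab31 in the list, rose by 0.71, from 77.4 to 122 CPM (adjusted p = 8.62e-04 from edgeR). Rab17, a Rab of epithelial cells, was not tested, with 4 counts in all.

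Of 14 Rab5 effectors and early endosome genes, 3 rose, none fell and 11 did not pass, with a median of 0.13. The shares over all genes tested were 28.3% rising and 26.1% falling. Appl2, an adaptor on a class of early endosomes, rose by 2.67 on the log2 scale (SE 0.40, adjusted p = 3.60e-04 from edgeR), from 9.87 CPM on day 2 to 25.9 CPM on day 8 and 52.6 CPM on day 10, after which it stayed between 49.1 and 56.5 CPM. Pik3c3, the lipid kinase that makes the phosphoinositide EEA1 binds, rose by 0.79 (SE 0.15). Appl1, the relative of Appl2, had a fitted change of 0.12 (SE 0.12, adjusted p = 0.408 from edgeR).

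Of 19 genes of the clathrin coat, membrane bending and fission, 2 rose, 7 fell and 10 did not pass, with a median of -0.27. Among all genes tested, 28.3% rose and 26.1% fell. Sh3kbp1, an adaptor that links receptors to endophilin, fell from 414 CPM on day 2 to 150 CPM on day 18 (fitted log2 change -1.53, SE 0.23), and Cltb, a clathrin light chain, fell from 32.9 to 13.2 CPM (-1.11, SE 0.27). Dnm1, a dynamin that severs vesicles from the membrane, rose from 14.9 to 56.6 CPM (1.51, SE 0.36). Bin2, a relative of Bin1 found mainly in blood cells, had 0 counts on days 2, 4, 8 and 10, 1 on day 6, and 17, 16, 10 and 64 on days 12, 14, 16 and 18. Monocyte and macrophage markers rose over the same days, as did adipocyte, osteoclast and mast cell markers and the osteoblast markers Ibsp, Bglap and Dmp1. Their part in these counts was not tested. Cd2ap, whose product binds RIN3, lay between 101 and 122 CPM on all days (fitted change 0.07, SE 0.11).

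Of 6 other endosomal Rabs, 2 rose, 1 fell and 3 did not pass, with a median of 0.05. All genes tested had shares of 28.3% rising and 26.1% falling. The recycling endosome genes Rab11b and Rab11a passed in different directions, Rab11b from 109 to 248 CPM (1.21, SE 0.15) and Rab11a from 54.4 to 31.7 CPM (-0.93, SE 0.14). Rab4b rose from 14.1 to 22.0 CPM (0.49, SE 0.13). These lists were counted and not tested as sets.

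The genes whose log2 CPM followed a member most closely over the 9 days were sought among 8207 named genes with a mean of at least 10 CPM. For Rin2 these were Fkbp7, Colec12 and Abca2 (Pearson's r of 0.997, 0.997 and 0.995). For Rin1, whose own mean of 8.83 CPM was below that level, they were March5, Ccl7 and Slc25a24 (0.988, 0.986 and 0.984). The r compares the shape of a course and not its size. Rin1 spanned 3.31 to 17.5 CPM, March5 26.0 to 43.9, Ccl7 5.47 to 58.3 and Slc25a24 50.6 to 87.2 CPM. For Bin1 they were Tnpo2, Ugcg and Canx (0.996, 0.995 and 0.994). Rab31 was followed by Fam69a, Nox4 and Rab4b (0.985, 0.967 and 0.956), of which Rab4b is also an endosomal Rab. The closest genes to Rin3 were less alike, C130039O16Rik, Repin1 and Dclre1a (0.945, 0.894 and 0.881). These values describe 9 libraries that share a time course, the best of many genes were picked, and no test was made of them.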

How the data were processed

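RNA sequencing profiles of sorted calvarial cells on 9 days were analysed, 27 profiles in all. Per the submitters' processing notes, reads were aligned with Bowtie 0.12.9 to the NCBIM37 transcriptome and quantified with RSEM 1.2.8. The authors deposited estimated counts (RSEM expected counts, not normalized), TPM values, which have the same sum in each profile, FPKM values, scaled by transcript length and fragment total, and the effective length of each gene. Here each profile's TPM were rescaled so that all profiles had the same upper quartile. Symbols came from the GENCODE annotation of NCBIM37, which named 37205 of 37991 genes, and promoter sequences from RefSeq on GRCm38.p6.

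Estimated counts of the 3 profiles of a day, which share a barcode, were summed and rounded. Over 90 chi-square tests of the 10 genes between lanes, 5 gave p under 0.05 (statistic per degree of freedom 0.920). The line and the natural spline with 3 degrees of freedom were fitted with edgeR 4.0.16 in R 4.3.3 (upper-quartile factors, minimum count of 10, Benjamini-Hochberg adjusted p under 0.05), after tests on simulated data. P-values measure scatter between single libraries around the curve. That scatter (common dispersion) was 0.0581 around the line and 0.0196 around the spline. The simulated data used the spline's value for every gene and gave most genes no slope, so they were unlike these data in both respects. Alternatives used DESeq2 1.42.0 and limma 3.58.1. Wilson intervals (95%, scipy 1.17.1) cover counting error only. Pathway genes were named where they passed the line with the 2 largest changes in each direction of their list or had no counts, and Usp6nl, Tgfbrap1, Rab21 and others only counted. Cd2ap, Appl1 and Rab17 were named outside that rule, and some genes that met it are not reported here. The members and lists were chosen with earlier results of these data known.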

Additional observations from a re-analysis of the deposited data

How the results depend on the processing

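Each day is 1 library, so library and day are confounded. The calls and signs of Rin1, Rin2, Rin3, Rab5b, Rab31, Rabgef1 and Bin1 in the line held under TMM factors, DESeq2, no filter, both fits of 27 profiles, limma on TPM, early against late days, removal of mitochondrial ribosomal RNA, and each replicate or day left out. The median change of all genes was 0.05 with upper-quartile factors, 0.01 with TMM and 0.02 with DESeq2. The causes of the shifts below were not tested, except that 27 lanes entered as samples add no libraries.

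In the line, Rab5a had -0.37 (adjusted p = 7.37e-04 from edgeR) with 27 profiles as separate samples and -0.37 (adjusted p = 0.00125) with the replicate block. Numbers did not pair the profiles, with a mean correlation of 0.00555 for the same number and -0.00277 for others, and the block changed no other call of the line. Eea1 had -0.16 with limma on TPM and -0.22 with days 2 to 6 against days 14 to 18, neither past the threshold (adjusted p = 0.282 from limma and 0.0584 from edgeR), and -0.32 to -0.22 with a replicate or day left out. Rab5c ranged from -0.051 to 0.13 with a replicate or day left out, being -0.051 without day 18. The number of the 10 genes that fell was 4 in the reported fit, 3 to 4 with a replicate or day left out, 3 with limma on TPM and with early against late days, and 5 in both fits of 27 profiles.

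In the spline, the adjusted p with DESeq2 was 0.033 for Rin3, 0.0400 for Rab5a and 0.0499 for Eea1, and with limma on TPM it was 0.0277 for Rin3. All 10 genes passed with 27 profiles as separate samples, against 6, with adjusted p of 4.12e-05 for Rin3, 1.33e-04 for Rab5a, 0.0373 for Rab5c and 2.75e-06 for Eea1 from edgeR. With the replicate block 10 passed too, with 7.24e-05, 2.54e-04, 0.0447 and 8.18e-06 for the same genes. With a replicate or day left out, the adjusted p ranged from 0.0172 to 0.123 for Rin3, being under 0.05 without replicate 3, day 16 or day 18, and from 0.0408 to 0.288 for Rab5a, being under 0.05 without day 6.

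Mean levels with TPM as deposited were 3.56 for Rin1 and 61.5 for Rab5b, the only ones outside the spread between lanes. In FPKM, another unit, they were 2.31 for Rin1, 16.6 for Rin2, 13.3 for Rin3, 16.1 for Rab5a, 39.6 for Rab5b, 45.3 for Rab5c, 22.9 for Rab31, 8.15 for Rabgef1, 13.5 for Eea1 and 20.8 for Bin1.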
